A study of Homo sapiens with 13 samples.

Results

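A set of 49 genes that copy the genome or admit cells to S phase was followed in hFOB 1.19 osteoblasts, a line of human fetal bone-forming cells. The members were listed by symbol, as textbook components of DNA replication and of the G1/S transition. No measured value enters the rule, but the list was chosen with earlier results of these data known. All 49 were found among the 43836 genes of the deposited count table, and all 49 were among the 17092 genes with enough reads to test. The study asked how 3 treatments changed gene expression in osteoblasts deprived of serum, and messenger RNA was sequenced from 5 groups of cells. Positive controls (PC, n = 2) were grown with 10% fetal bovine serum (FBS), and negative controls (NC, n = 2) without it, both with the DMSO vehicle. The other cells were also without FBS and received 1 µg/mL of resveratrol (RES, n = 3), of the anthocyanin peonidin-3-O-glucoside (POG, n = 3) or of DEG (n = 2). The labels do not spell out DEG, although their treatment notes name delphinidin-3-glucoside among the compounds given. How long the cells were exposed before RNA was isolated is not given in the sources used here. All libraries come from 1 line, which was immortalized with a temperature-sensitive SV40 large T antigen, a viral protein that binds the RB family of cell cycle brakes. Nothing in the labels says that replicates were separate cultures, so the p-values measure the spread between these libraries, which may be technical.

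DNA replication is prepared in G1, when the origin recognition complex (ORC), CDC6 and CDT1 load rings of the MCM2-7 helicase onto origins, a step called licensing. At S phase entry CDC45, the GINS complex and MCM10 turn the loaded rings into active forks. Primase and polymerase alpha then start each strand, polymerases delta and epsilon extend it on the PCNA clamp, and nucleases and ligase 1 join the pieces. Many of these genes are transcribed by E2F factors, which the RB family holds back until cyclin-dependent kinases act. Serum growth factors feed this switch in normal cells, and osteoblast precursors divide before they mature and lay down matrix.

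Levels are given as CPM, the reads of a gene per 1000000 reads of the library, with library totals rescaled by the TMM method so that most genes are centred on no change. Differences are log2 ratios of the first group to the second. A gene was called higher or lower when the false discovery rate (FDR) of edgeR's exact test, adjusted over all 17092 genes, was below 0.05. With 2 or 3 libraries a group, groups can easily separate by chance, so lack of overlap only describes the libraries and adds no support. Libraries held 38464619 to 51416358 counted reads, the members took 0.552 to 0.607% of them, and the member with the fewest reads, CCNE1, had 7165 over the 12 libraries. The median coefficient of variation of the members was 2.77% in PC and 1.47 to 2.02% in the other groups. The 10 osteoblast markers together reached 4752.5 to 5524.7 CPM, and the matrix genes COL1A1, COL1A2 and SPARC made up nearly all of it. RUNX2 averaged 47.1 CPM in NC. ALPL, SPP1, BGLAP and DLX5 averaged only 4.07, 2.16, 1.49 and 0.86 CPM there, and SP7 and IBSP were too low to test. Markers of endothelial, blood and muscle cells summed to at most 8.10, 1.59 and 1.54 CPM, while the epithelial list, nearly all of it KRT8, ran from 181 to 286 CPM.

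All 49 members were expressed in the cells without serum. Per kilobase of exon, PCNA, the sliding clamp of the polymerases, was the most abundant member in NC at 151 CPM per kb. POLA1, the catalytic subunit of polymerase alpha, was the least abundant at 2.98 CPM per kb. PCNA read 214 and 201 CPM in PC, 209 and 215 in NC, 228, 220.3 and 226 in RES, 212, 209 and 214 in POG and 208 and 213 in DEG. The RES libraries were the highest for PCNA, and the other groups overlapped. POLA1 read 41.5 and 46.3 CPM in PC, 48.0 and 44.7 in NC, 45.5, 47.1 and 47.0 in RES, 44.8, 44.6 and 43.5 in POG and 44.6 and 40.6 in DEG. Its RES libraries lay above all POG and DEG libraries, and DEG lay just below NC, while the other pairs of groups overlapped. POLA1 was called in no comparison. Summed over the 49 members, the level was 5855 and 5703 CPM in PC, 5774 and 5796 in NC, 5883, 5833 and 5902 in RES, 5964, 5970.4 and 6009.8 in POG and 5922 and 5956 in DEG. The sums of all 3 treatments were thus above both NC sums, and the PC sums lay on either side of them. In a bulk sample, fewer cells in S phase and less RNA per cell cannot be told apart.

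**Figure D1:**
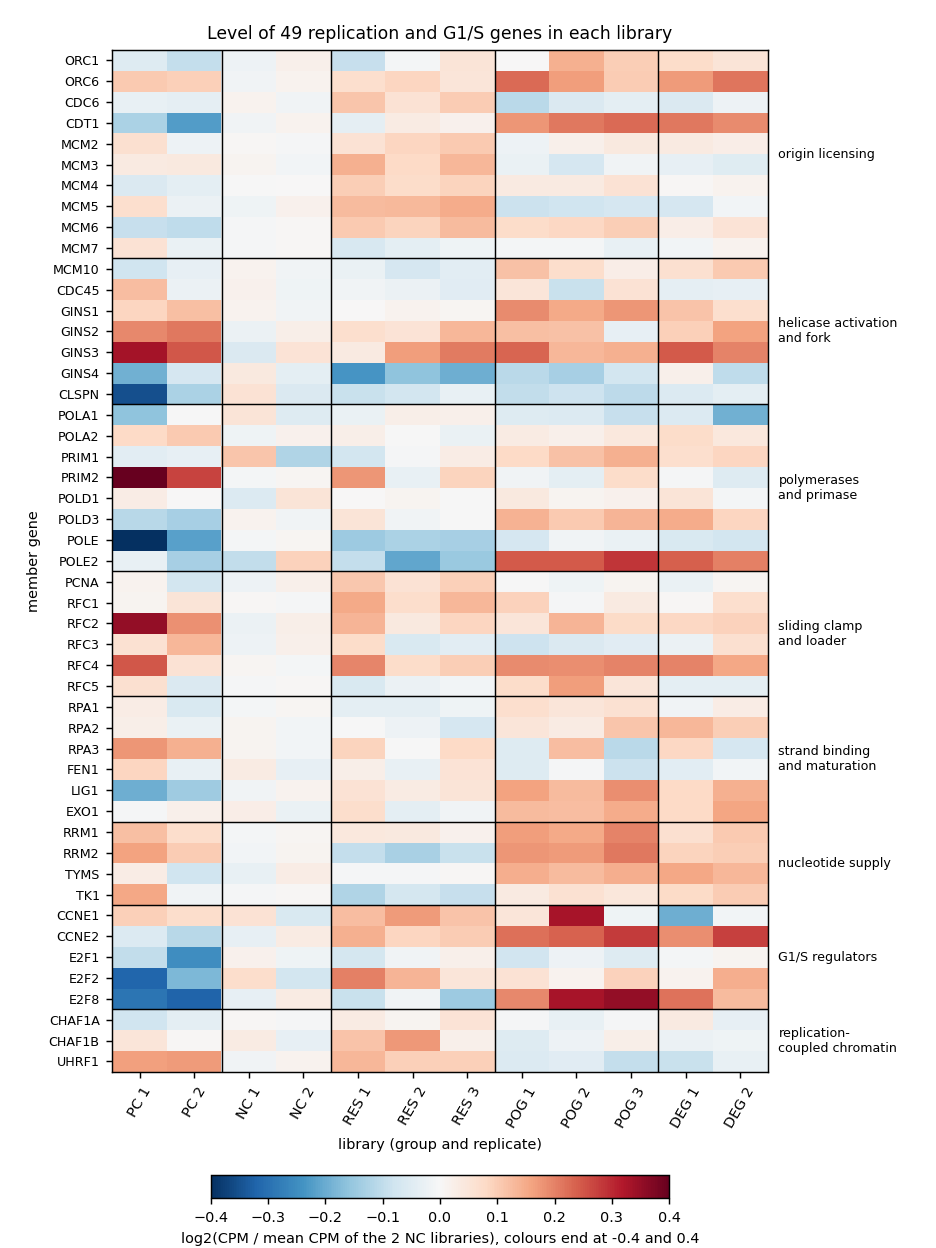
Heat map of the 49 members (rows, grouped by role) in the 12 libraries (columns), coloured by log2 of the CPM over the mean CPM of the 2 NC libraries, with colours ending at -0.4 and 0.4. Rows of 1 role differ in direction in the PC columns, and E2F8, CDT1, POLE2 and CCNE2 are red in all POG and DEG libraries.

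Serum did not move the replication genes as a block. As compared with NC, 8 members were higher in PC and 9 were lower, while 21.5% of all tested genes were higher and 20.9% lower. The share of members called either way, 34.7%, was below the 42.4% of all tested genes. Members were abundant genes (median 84.1 CPM, against 17.5 CPM over all tested genes), and among the 9325 genes that averaged 13 CPM or more, 57.9% were called. The member differences ran from -0.33 to 0.35 on the log2 scale, with a median of 0.01, and the largest change was 27.1%, in PRIM2. With library totals left unscaled, 6 members were higher and 12 lower.

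The initiators and fork genes split in both directions. Among the 10 licensing genes 2 were lower and none was higher. CDT1, the factor that brings MCM rings to ORC, read 171 and 159.7 CPM in PC and 184 and 188 in NC (log2 difference -0.17 ± 0.04 (SE), FDR = 1.07e-04). MCM6, a subunit of the ring, read 111 and 110.2 CPM in PC and 118 and 119 in NC (log2 difference -0.10 ± 0.04 (SE), FDR = 0.0357). Both genes were lower in both PC libraries than in either NC library, but the MCM6 call was lost without PC replicate 2, NC replicate 1 or NC replicate 2. It was also lost without the filter on low counts (FDR 0.123) and with dispersions from the groups compared (FDR 0.223). GINS3 and CLSPN, at the active fork, moved oppositely. GINS3, a subunit of the GINS complex that bridges helicase and polymerase, read 23.4 and 22.0 CPM in PC and 17.8 and 19.3 in NC (log2 difference 0.29 ± 0.07 (SE), FDR = 3.33e-04). CLSPN, claspin, which couples the fork to the checkpoint kinase CHK1, read 73.9 and 86.4 CPM in PC and 98.0 and 90.5 in NC (log2 difference -0.24 ± 0.05 (SE), FDR = 6.64e-05). The groups did not overlap for either gene, although the pair of PC libraries lay far apart for CLSPN.

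Among the enzymes that make and join DNA the largest differences of either sign were found. PRIM2, the large primase subunit, read 37.7 and 34.1 CPM in PC and 28.1 and 28.4 in NC (log2 difference 0.35 ± 0.07 (SE), FDR = 1.72e-06). POLE (ENSG00000177084.16), the catalytic subunit of the leading-strand polymerase epsilon, read 152 and 179 CPM in PC and 207 and 209 in NC (log2 difference -0.33 ± 0.05 (SE), FDR = 1.50e-10). PRIM2 was thus the largest rise and POLE the largest fall among the members, each without overlap of the groups. The size of the POLE difference rested on PC replicate 1, without which it was -0.21, and POLE was then not the largest fall. GENCODE lists a pseudogene of PRIM2 (PRIM2BP) and several of RRM2, and how reads shared with such copies were counted is not given in the sources used here. Of the clamp loader subunits, RFC2 read 89.0 and 79.2 CPM in PC and 68.6 and 71.0 in NC (log2 difference 0.27 ± 0.05 (SE), FDR = 1.37e-06). Another subunit, RFC4, read 85.6 and 74.9 CPM in PC and 72.5 and 71.6 in NC (log2 difference 0.16 ± 0.05 (SE), FDR = 0.00944), and its call rested on PC replicate 1 and NC replicate 2. The RFC4 call was also lost with unscaled library totals (FDR 0.0689) and with dispersions from the groups compared (FDR 0.0924). LIG1, the ligase that seals Okazaki fragments, read 115 and 119.6 CPM in PC and 131 and 133 in NC (log2 difference -0.17 ± 0.04 (SE), FDR = 1.84e-04). It was the only called member of the 6 strand binding and maturation genes.

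The nucleotide supply genes RRM2 and RRM1 were higher with serum. Their products form ribonucleotide reductase, which makes deoxynucleotides. RRM2 read 408 and 391 CPM in PC and 362 and 368 in NC (log2 difference 0.13 ± 0.03 (SE), FDR = 0.00100). RRM1 read 207 and 200.2 CPM in PC and 189.7 and 192 in NC (log2 difference 0.09 ± 0.03 (SE), FDR = 0.0315). The RRM1 call was lost without PC replicate 1 or either NC library. It was also lost with unscaled library totals (FDR 0.277), with dispersions from the groups compared (FDR 0.265) and without the low-count filter (FDR 0.0983). Neither gene's groups overlapped. Of the 5 G1/S regulators, 3 were lower and none was higher, and the cyclins CCNE1 and CCNE2 were not called (0.08 and -0.08 on the log2 scale). E2F8 (ENSG00000129173.12), an atypical E2F that represses E2F targets late in S phase, read 19.3 and 18.9 CPM in PC and 23.1 and 24.2 in NC (log2 difference -0.31 ± 0.07 (SE), FDR = 9.23e-05). E2F2, an activating E2F, read 18.5 and 20.3 CPM in PC and 24.2 and 21.8 in NC (log2 difference -0.25 ± 0.07 (SE), FDR = 0.00308), a call lost without PC replicate 1 or NC replicate 1 (FDR 0.0978 and 0.138). E2F1, another activator, read 118 and 106 CPM in PC and 128 and 125 in NC (log2 difference -0.17 ± 0.04 (SE), FDR = 8.32e-04), a call lost without PC replicate 2 (FDR 0.0502). In these 3 regulators both PC libraries were below both NC libraries. UHRF1, which brings the maintenance DNA methyltransferase to newly copied DNA, read 205 and 205 CPM in PC and 181 and 185 in NC (log2 difference 0.17 ± 0.03 (SE), FDR = 6.95e-05). Of the 17 calls under serum, 9 were kept under all 11 alternative settings tried: CDT1, GINS3, CLSPN, PRIM2, POLE, RFC2, LIG1, E2F8 and UHRF1.

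**Figure D2:**
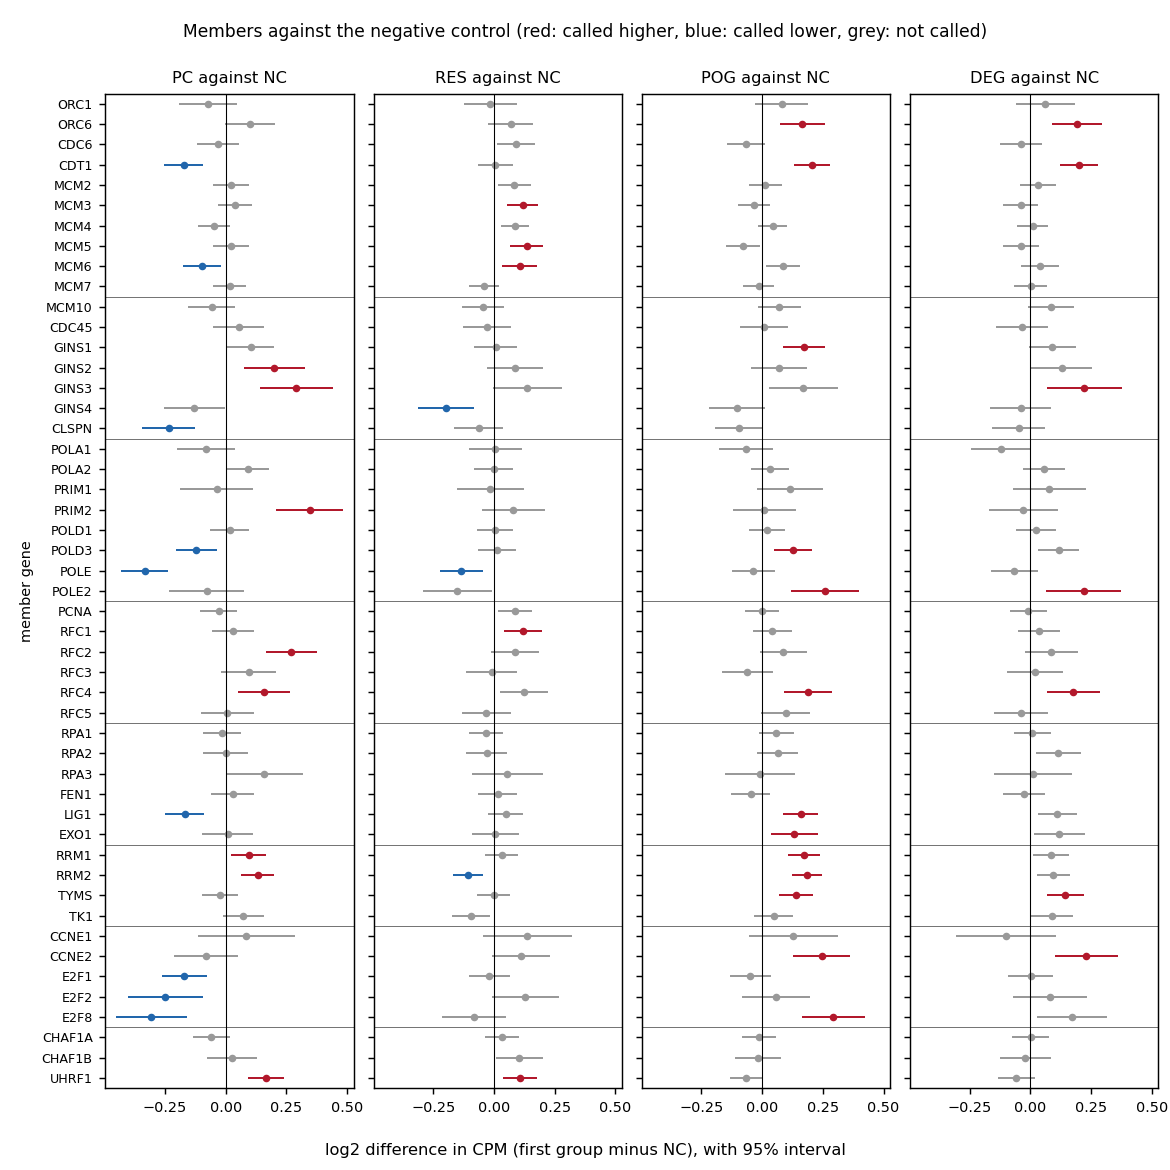
Log2 difference in CPM of each member (row) between PC, RES, POG or DEG and NC, with the 95% interval as a line, red where called higher, blue where called lower and grey where not called. Serum shows calls of both signs (8 higher, 9 lower), RES few of both (5 and 3), and POG and DEG only rises (13 and 7).

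Promoters of the members held E2F words more often than promoters at large, as did promoters of other replication genes. RefSeq promoters (GRCh38.p14, 250 bases before to 50 after the start) matched 41 of the 49 members. The words searched on both strands were TTTCCCGC, TTTCGCGC, TTTGCCGC and TTTGGCGC, which are forms of the E2F site and can overlap each other on opposite strands. At least 1 word was present in 22 of the 41 member genes (53.7%) and in 1090 of 27305 genes with a promoter (3.99%). Among other replication genes, a list examined below, 16 of 40 with a promoter held a word (40%). Among G2/M genes, also examined below, 2 of 17 did (11.8%). All 7 matched members that were lower in PC held a word (CDT1, CLSPN, E2F1, E2F2, LIG1, MCM6 and POLE), as did 3 of the 8 that were higher (GINS2, GINS3 and UHRF1) and 12 of the 26 that were not called. POLD3 and E2F8, also called lower in PC, had no promoter to search. The calls of MCM6, E2F1 and E2F2 were not kept under all alternatives, and the motifs were chosen with earlier results of these data known. These counts describe few genes and were not tested, and a matching word is not a bound site. The CCAAT box was present in 24 of the 41 members (58.5%) and in 39.7% of all genes. It was more frequent still in the other replication genes (26 of 40, 65%) and the G2/M genes (15 of 17, 88.2%). The CHR element TTTGAA, known from G2/M promoters, was present in 1 of the 41 members (2.44%), RRM1, in 18.2% of all genes and in 10 of 17 G2/M genes (58.8%).

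The 160 bases before the start are shown for CDT1, MCM6, E2F1 and E2F2, which were lower with serum and hold a word wholly upstream, for GINS2, which was higher and holds one, and for RRM1 and PRIM2, which were higher and hold none in the whole promoter. They were chosen among the stretches that overlap no exon of GENCODE v44, and the first RefSeq start is shown where a gene has several. GINS2, named here after its values were seen, read 36.2 and 36.7 CPM in PC and 31.2 and 32.2 in NC (log2 difference 0.20 ± 0.06 (SE), FDR = 0.00297). Each stretch is written 5′ to 3′ in the direction of the gene, and capitals mark the E2F words, which also appear as the reverse complements GCGGGAAA, GCGCGAAA, GCGGCAAA and GCGCCAAA.
CDT1, chr16:88803629-88803788 (+ strand): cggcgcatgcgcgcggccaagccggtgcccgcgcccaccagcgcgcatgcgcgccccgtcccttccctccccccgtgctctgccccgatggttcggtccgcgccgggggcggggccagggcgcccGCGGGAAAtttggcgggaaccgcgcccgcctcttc
MCM6, chr2:135876444-135876603 (- strand): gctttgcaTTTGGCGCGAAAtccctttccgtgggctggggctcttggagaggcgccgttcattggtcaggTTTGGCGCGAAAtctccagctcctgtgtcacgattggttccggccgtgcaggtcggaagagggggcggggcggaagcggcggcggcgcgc
E2F1, chr20:33686386-33686545 (- strand): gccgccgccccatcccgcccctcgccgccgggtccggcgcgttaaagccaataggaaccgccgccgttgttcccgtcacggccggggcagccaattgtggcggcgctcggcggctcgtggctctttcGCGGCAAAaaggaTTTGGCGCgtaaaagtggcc
E2F2, chr1:23531234-23531393 (- strand): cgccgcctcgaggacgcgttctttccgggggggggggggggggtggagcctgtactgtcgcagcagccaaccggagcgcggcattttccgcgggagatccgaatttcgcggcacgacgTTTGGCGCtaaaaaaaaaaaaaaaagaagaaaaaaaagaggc
GINS2, chr16:85688955-85689114 (- strand): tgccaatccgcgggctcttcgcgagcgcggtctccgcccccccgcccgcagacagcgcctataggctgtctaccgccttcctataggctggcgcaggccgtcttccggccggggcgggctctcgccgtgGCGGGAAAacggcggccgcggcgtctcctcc
RRM1, chr11:4094525-4094684 (+ strand): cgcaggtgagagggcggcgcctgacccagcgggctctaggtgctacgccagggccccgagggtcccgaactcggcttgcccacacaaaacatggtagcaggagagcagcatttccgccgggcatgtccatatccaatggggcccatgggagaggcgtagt
PRIM2, chr6:57314645-57314804 (+ strand): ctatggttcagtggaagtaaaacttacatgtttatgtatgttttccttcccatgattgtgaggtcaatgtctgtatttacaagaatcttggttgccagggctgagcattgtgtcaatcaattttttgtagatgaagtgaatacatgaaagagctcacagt
The word began 35 bases before the start in CDT1, 42 in E2F2 and 31 in GINS2, while MCM6 held 2 overlapping pairs, with first bases 152, 148, 90 and 86 bases before the start. E2F1 held words 33 and 20 bases before its own start.

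**Figure D3:**
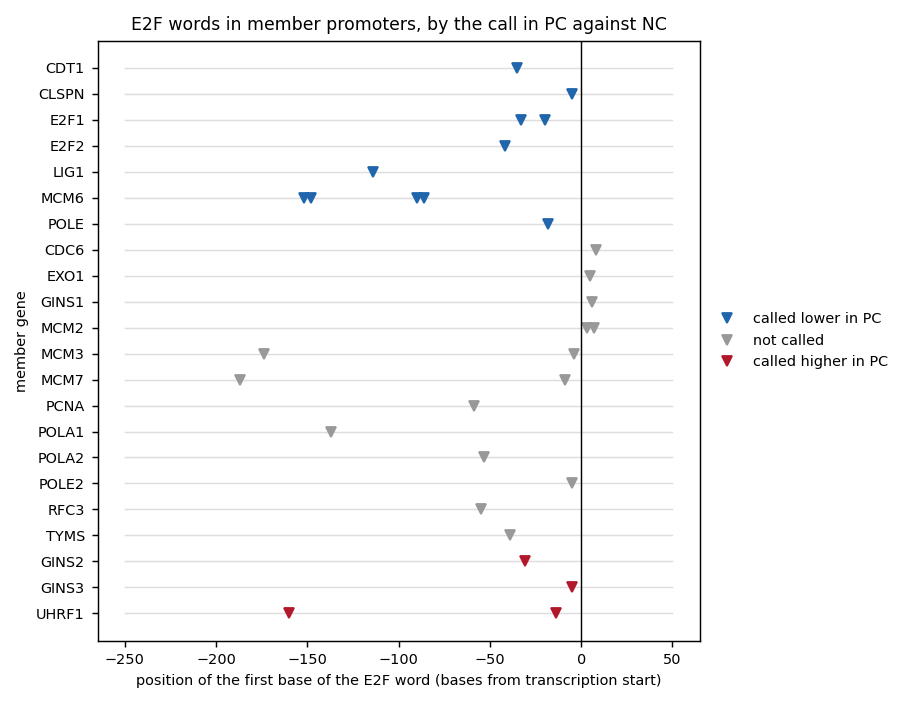
Position of the first base of each E2F word (triangles, in bases from the transcription start at 0, which is the vertical line) in the 22 members that hold one, from 250 bases before to 50 after the start, coloured by the call in PC against NC. Blue rows are the 7 genes lower with serum, red rows the 3 higher, and most words lie close to the start.

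The members called in POG all rose. As compared with NC, 13 members were higher and none was lower, a share of 26.5% against 5.98% of all tested genes that were higher and 8.60% that were lower. Among genes that averaged 13 CPM or more, 8.23% were higher. The member median was 0.06 on the log2 scale and the differences ran from -0.10 to 0.29. Calls fell in 7 of the 8 roles, and replication-coupled chromatin had none. With unscaled library totals 15 members were higher and none lower, and over the libraries left out in turn the count ran from 9 to 12.

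E2F8, POLE2 and CCNE2 gave the largest rises. E2F8 read 27.0, 29.7 and 30.2 CPM in POG and 23.1 and 24.2 in NC (log2 difference 0.29 ± 0.06 (SE), FDR = 9.02e-05). CCNE2, cyclin E2, which activates CDK2 at the G1/S boundary, read 28.4, 28.7 and 29.6 CPM in POG and 23.8 and 24.9 in NC (log2 difference 0.24 ± 0.06 (SE), FDR = 3.93e-04). CDT1 (ENSG00000167513.8) read 210.4, 216 and 218 CPM in POG (log2 difference 0.21 ± 0.03 (SE), FDR = 1.32e-06). Every POG library was above both NC libraries for these 3 genes, and each call was kept under all 12 alternatives. POLE2 (ENSG00000100479.12), the second subunit of polymerase epsilon, read 22.5, 22.5 and 23.1 CPM in POG and 17.7 and 20.2 in NC (log2 difference 0.26 ± 0.07 (SE), FDR = 0.00179). Its groups did not overlap, but the NC libraries differed from each other by more than the POG libraries did, and the call was lost without NC replicate 1 (FDR 0.241). RFC4 read 82.2, 81.9 and 82.7 CPM in POG and 72.5 and 71.6 in NC (log2 difference 0.19 ± 0.05 (SE), FDR = 0.00143), a call lost without NC replicate 2 (FDR 0.0549). LIG1 read 147, 144 and 150.01 CPM in POG (log2 difference 0.16 ± 0.03 (SE), FDR = 4.21e-04).

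Of the 4 nucleotide supply genes, 3 rose in POG. RRM2 (ENSG00000171848.13) read 412, 411 and 422 CPM in POG and 362 and 368 in NC (log2 difference 0.19 ± 0.03 (SE), FDR = 7.44e-07). RRM1 read 215, 212 and 219 CPM in POG and 189.7 and 192 in NC (log2 difference 0.17 ± 0.03 (SE), FDR = 1.92e-05). The other called gene was TYMS, thymidylate synthase, named after its values were seen, at 277, 274 and 278 CPM in POG and 246 and 256 in NC (log2 difference 0.14 ± 0.03 (SE), FDR = 0.00151). TYMS lost its call without NC replicate 1 (FDR 0.139). RRM1 and RRM2 kept theirs throughout. Summed over the 4 genes of the role, the level was 1089, 1085 and 1105 CPM in POG and 977 and 996 in NC, and the groups did not overlap.

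CDT1, LIG1, POLD3 and E2F8 were called lower with serum and higher with POG. For POLD3, an accessory subunit of polymerase delta, named after its values were seen, the differences were -0.12 with serum and 0.13 with POG, and both calls were lost without NC replicate 1 (highest FDR over the alternatives 0.117 and 0.163). These comparisons share the NC libraries and are not independent, so the levels are given side by side. Joint calls were not counted over all tested genes, so their number does not set the members apart. E2F8 averaged 19.1 CPM in PC, 23.6 in NC and 29.0 in POG. LIG1 averaged 117 CPM in PC, 132 in NC and 147 in POG. In each of E2F8 and LIG1 all PC libraries were below all NC libraries, and all POG libraries above them. RRM1, RRM2 and RFC4 were called higher in both comparisons, and RRM2 averaged 399.8 CPM in PC, 365 in NC and 415 in POG.

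DEG gave fewer calls, all of them rises. As compared with NC, 7 members were higher and none was lower, while 3.52% of all tested genes were higher and 6.11% lower. Of the genes that averaged 13 CPM or more, 5.42% were higher and 8.61% lower. The share of members called either way, 14.3%, was near the 14% of those genes. The median difference was 0.04. CDT1 read 216 and 212 CPM in DEG and 184 and 188 in NC (log2 difference 0.20 ± 0.04 (SE), FDR = 4.31e-05), and it was the only one of the 7 calls kept under all 11 alternatives. CCNE2 read 27.7 and 29.5 CPM in DEG and 23.8 and 24.9 in NC (log2 difference 0.23 ± 0.06 (SE), FDR = 0.00554). GINS3 read 22.0 and 21.3 CPM in DEG and 17.8 and 19.3 in NC (log2 difference 0.22 ± 0.07 (SE), FDR = 0.0359). The groups did not overlap for these genes. POLE2 read 22.4 and 21.8 CPM in DEG and 17.7 and 20.2 in NC (log2 difference 0.22 ± 0.07 (SE), FDR = 0.0356). GINS3 and POLE2 were not called by edgeR's quasi-likelihood test (FDR 0.0587 and 0.0593). Without NC replicate 1 the count fell to 1, without DEG replicate 1 to 3 and without DEG replicate 2 to 2, whereas dispersions estimated from the groups compared gave 14.

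With resveratrol few members were called. As compared with NC, 5 members were higher and 3 lower, while 4.94% of all tested genes were higher and 6.25% lower. The share of members called, 16.3%, was near the 15.9% of genes that averaged 13 CPM or more. The differences ran from -0.20 to 0.14, with a median of 0.01. Licensing genes made up 3 of the 5 rises. MCM5 (ENSG00000100297.15) read 234, 235 and 237 CPM in RES and 212 and 217 in NC (log2 difference 0.13 ± 0.03 (SE), FDR = 0.00320). MCM3 read 279.7, 267 and 277 CPM in RES and 255 and 251 in NC (log2 difference 0.12 ± 0.03 (SE), FDR = 0.00827). Both encode subunits of the helicase ring, and in both every RES library was above both NC libraries. RFC1, the large subunit of the clamp loader, read 141, 133 and 139 CPM in RES and 128 and 127 in NC (log2 difference 0.12 ± 0.04 (SE), FDR = 0.0298). UHRF1 read 200.2, 195 and 195 CPM in RES and 181 and 185 in NC (log2 difference 0.11 ± 0.03 (SE), FDR = 0.0251).

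The members that fell with RES were GINS4, POLE and RRM2. GINS4, a further subunit of the GINS complex, read 30.2, 31.8 and 31.0 CPM in RES and 36.5 and 34.6 in NC (log2 difference -0.20 ± 0.05 (SE), FDR = 0.00701). POLE read 188, 191 and 189.7 CPM in RES and 207 and 209 in NC (log2 difference -0.13 ± 0.04 (SE), FDR = 0.0284). RRM2 read 341, 334 and 343 CPM in RES and 362 and 368 in NC (log2 difference -0.11 ± 0.03 (SE), FDR = 0.0183). All RES libraries were below both NC libraries for these 3 genes. The calls against NC were fragile: none of the 8 was kept under all 12 alternatives, the count was 0 without NC replicate 1, 2 without NC replicate 2, and 3, 4 and 4 without RES replicates 1, 2 and 3. With unscaled library totals 11 members were higher and 1 lower, and POLE and RRM2 were no longer called (FDR 0.116 and 0.105).

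POG and RES were compared at the same dose by mass (1 µg/mL), with 3 libraries in each group. RES is a stilbene and POG an anthocyanin glucoside. As compared with RES, 16 members were higher in POG and 6 lower, while 13.7% of all tested genes were higher and 14.1% lower. Among genes that averaged 13 CPM or more, 20.5% were higher and 17.6% lower. The differences ran from -0.21 to 0.41, and 13 of the 22 calls were kept under all 13 alternatives. All 4 nucleotide supply genes and 4 of the 6 strand binding and maturation genes were higher, and none of either role was lower. Among the licensing genes 3 were lower and 1 higher, and 2 of the 3 replication-coupled chromatin genes were lower.

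POLE2 gave the largest rise, at 22.5, 22.5 and 23.1 CPM in POG and 17.7, 16.4 and 17.1 in RES (log2 difference 0.41 ± 0.06 (SE), FDR = 1.64e-10). E2F8 read 27.0, 29.7 and 30.2 CPM in POG and 22.2, 23.4 and 21.4 in RES (log2 difference 0.37 ± 0.05 (SE), FDR = 4.65e-10). RRM2 read 412, 411 and 422 CPM in POG and 341, 334 and 343 in RES (log2 difference 0.29 ± 0.03 (SE), FDR = 3.34e-21). The lowest POG library exceeded the highest RES library for all 3. The other nucleotide supply genes rose by less: RRM1, TYMS and TK1 each differed by 0.14 on the log2 scale. TK1, thymidine kinase, was named after its values were seen, and it read 185, 188 and 186 CPM in POG and 166, 171 and 169 in RES (log2 difference 0.14 ± 0.03 (SE), FDR = 6.41e-04). Summed over the 4 genes, the level was 953, 951 and 957 CPM in RES, below every other library of the series.

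The largest falls were in MCM5, UHRF1 and CDC6. MCM5 read 202, 203 and 204 CPM in POG and 234, 235 and 237 in RES (log2 difference -0.21 ± 0.03 (SE), FDR = 5.01e-10). UHRF1 read 176, 177 and 171 CPM in POG and 200.2, 195 and 195 in RES (log2 difference -0.17 ± 0.03 (SE), FDR = 4.96e-07). CDC6, the ATPase that loads the MCM ring together with ORC, read 87.7, 90.9 and 91.9 CPM in POG and 102, 98.5 and 101 in RES (log2 difference -0.16 ± 0.03 (SE), FDR = 4.84e-05). For each gene the highest POG library was below the lowest RES library. These licensing partners lay on opposite sides of this contrast, since CDT1 was higher in POG (log2 difference 0.20 ± 0.03 (SE), FDR = 2.80e-08) and CDC6 lower.

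DEG was also compared with RES at that dose. As compared with RES, 11 members were higher in DEG and 7 lower, while 10.4% of all tested genes were higher and 10.9% lower. Among genes that averaged 13 CPM or more, 16.6% were higher and 12.8% lower, or 29.4% called either way beside 36.7% of the members. The contrasts of POG and of DEG share the RES libraries, so their values stand side by side and are not independent. POLE2 read 22.4 and 21.8 CPM in DEG (log2 difference 0.37 ± 0.07 (SE), FDR = 1.18e-06). E2F8 read 27.5 and 25.8 CPM in DEG (log2 difference 0.25 ± 0.06 (SE), FDR = 7.72e-04), and its call was lost without DEG replicate 1 (FDR 0.0802). RRM2 read 388 and 391 CPM in DEG (log2 difference 0.20 ± 0.03 (SE), FDR = 5.45e-08). These 3 rises were free of overlap with the RES libraries given above. CCNE1, cyclin E1, read 11.5 and 13.1 CPM in DEG and 14.4, 14.8 and 14.3 in RES (log2 difference -0.24 ± 0.09 (SE), FDR = 0.0412). CCNE1 had the fewest reads of the members, and its call was lost under the quasi-likelihood test (FDR 0.0597) and without DEG replicate 1, RES replicate 1, 2 or 3 (FDR 0.480, 0.0758, 0.123 and 0.0677). MCM5 read 205 and 213 CPM in DEG (log2 difference -0.17 ± 0.03 (SE), FDR = 2.44e-05), and UHRF1 172 and 179 CPM (log2 difference -0.17 ± 0.03 (SE), FDR = 4.74e-05). Both were below all RES libraries. Without DEG replicate 1 the count over the members was 9.

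**Figure D4:**
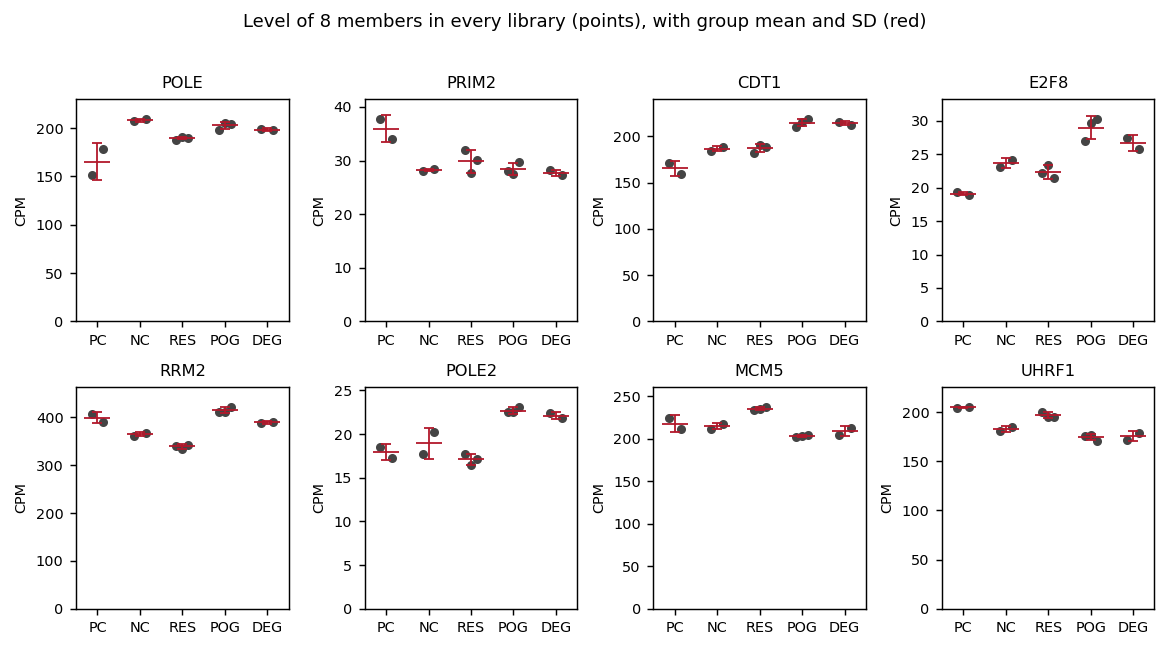
CPM of 8 members in every library (points, 2 or 3 per group; axes start at 0), with the group mean and SD in red. POLE is lowest in PC, CDT1 and E2F8 are lowest in PC and highest in POG and DEG, RRM2 and POLE2 have their lowest means in RES, and MCM5 and UHRF1 are higher in RES than in POG or DEG.

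No member was called between DEG and POG, where 1.07% of all tested genes were called. At an unadjusted p under 0.05 there were 4 of 49 by edgeR's exact test, 4 by its quasi-likelihood test and 4 by DESeq2. Over all tested genes the shares at that limit were 10.7%, 10.4% and 8.31%. No member was called by any of the 3 tests. The lowest FDR was 0.166, for RRM2, which read 388 and 391 CPM in DEG and 412, 411 and 422 in POG, without overlap. The 95% intervals of 46 of the 49 differences lay within 0.2 of 0 on the log2 scale. CCNE1 had the interval farthest from 0 (lower bound -0.41), with 11.5 and 13.1 CPM in DEG and 13.6, 16.6 and 13.04 in POG, of which POG replicate 2 stood apart. Dispersions estimated from these 5 libraries alone called RFC5, RRM1 and RRM2 lower in DEG (FDR 0.0216, 0.00532 and 1.23e-04). An interval within those bounds does not show that the compounds act alike.

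Over the 7 comparisons 36 members were called at least once and 13 never: ORC1, MCM2, MCM4, MCM7, CDC45, POLA1, POLA2, PRIM1, POLD1, RFC3, RPA3, FEN1 and CHAF1A. Against NC, 28 members were called with no compound. None was called with all 3. Such shares were not counted over all tested genes, so these numbers describe the list and do not set the members apart. In single comparisons, 57.9% of the genes at 13 CPM or more were called in PC against NC and 38.1% in POG against RES. Exons of 25 members overlap those of another gene, among them TYMS with ENOSF1, RFC4 with EIF4A2 and CCNE2 with INTS8. The strand setting of the counting is not given in the sources used here, so reads of such neighbours may be shared.

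Lists of related genes were examined for comparison. Of the 51 other replication and repair genes 10 were higher and 12 lower with serum, a share called of 43.1%, near the 42.4% of all tested genes. TIPIN, a fork protection factor, had a log2 difference of 0.62 (FDR = 4.15e-08), and ATAD5, which unloads PCNA, one of -0.39 (FDR = 5.11e-11). In POG against NC 14 of these 51 were higher and 1 lower, with RAD51AP1 at 0.22 (FDR = 1.22e-04), and in DEG against NC 8 were higher and 1 lower. In RES against NC 3 were higher and 5 lower, and CHTF18, a subunit of an alternative clamp loader, was the largest at -0.27 (FDR = 2.38e-11). CHTF18 was higher in POG than in RES by 0.34 (FDR = 8.87e-25). The median of these genes was 0.03 in PC against NC, 0.03 in RES against NC, 0.06 in POG against NC and 0.04 in DEG against NC, beside all-gene medians near 0.

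The 20 G2/M genes, which act in mitosis, were mostly higher with serum. As compared with NC, 15 of 20 were higher in PC and 1 lower, with a median of 0.23. CDC20, an activator of the anaphase-promoting complex, had a log2 difference of 0.56 (FDR = 5.04e-48), and CCNB1, cyclin B1, one of 0.46 (FDR = 4.63e-25). MKI67 did not rise with serum: it read 735 and 885 CPM in PC and 892 and 869 in NC. In RES 6 were lower than in NC and none higher, with MKI67 at -0.19 (FDR = 7.82e-04). In POG 9 were higher and none lower, and in DEG 7 were higher and none lower, with CDK1 at 0.20 (FDR = 3.14e-06) and 0.18 (FDR = 4.80e-04). As compared with RES, 14 were higher in POG and 11 in DEG, and none was lower. Their summed level was 4979 and 5178 CPM in PC, 4578 and 4561 in NC, 4342, 4314 and 4374 in RES, 4885, 4861 and 4902 in POG and 4801 and 4799 in DEG. The 5 groups did not overlap, and RES was the lowest.

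Upstream of the members, 8 of 12 G1 cyclins and CDK inhibitors were called under serum, 3 higher and 5 lower (66.7%, beside 42.4% of all tested genes and 57.9% of those at 13 CPM or more). CCND1, cyclin D1, which starts RB phosphorylation, had a log2 difference of 1.12 (FDR = 2.53e-200), and CDKN1A, the inhibitor p21, one of -0.46 (FDR = 6.57e-37). CCND1 was lower than NC in POG (-0.23, FDR = 1.71e-09) and DEG (-0.17, FDR = 5.82e-04) and higher in RES (0.14, FDR = 0.00208). Of the 10 E2F and RB family genes outside the members, 2 were higher and 3 lower in PC (50%). E2F7, the partner of E2F8 in repression, was lower in PC (-0.15, FDR = 0.00661) and higher in POG (0.16, FDR = 0.00288) and DEG (0.15, FDR = 0.0202). RB1 was the only one called in RES (0.13, FDR = 0.0211). The epithelial list also differed between groups (262 to 286 CPM in PC, 214 to 216 in NC, 240 to 245 in RES, 181 to 188 in POG and 194 to 195 in DEG), and its part in these results was not tested.

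**Figure D5:**
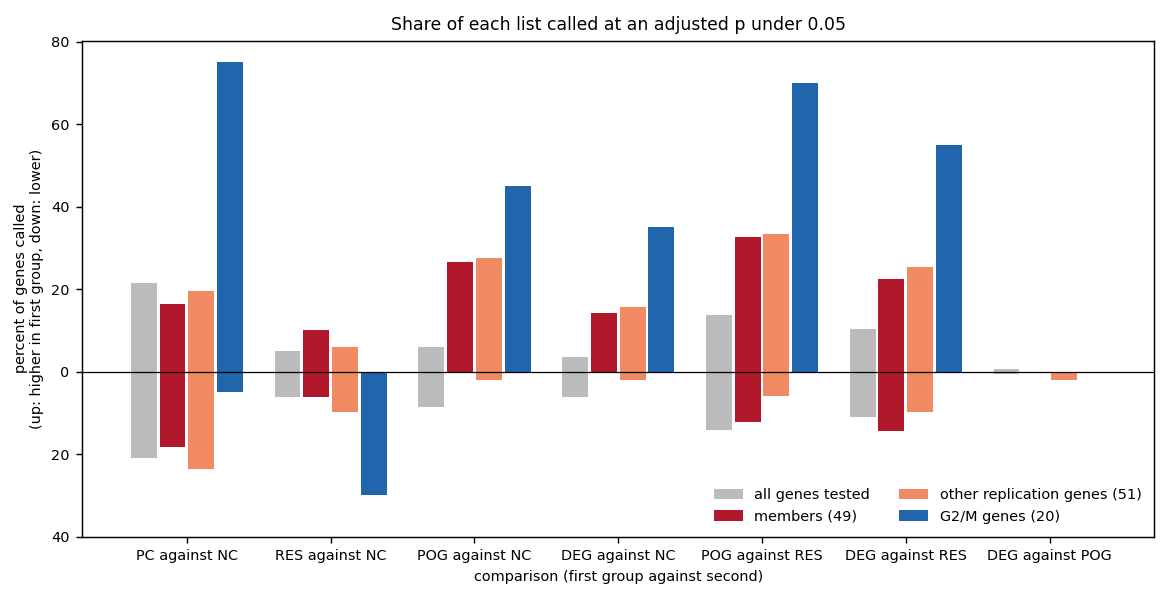
Percent of genes called higher (bars upward) and lower (bars downward) in each of the 7 comparisons for all tested genes, the members, other replication genes and G2/M genes. Called members lie on both sides under serum and only on the higher side with POG (26.5%) and DEG (14.3%). Of the 20 G2/M genes, 15 are higher with serum and 6 are lower with RES.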

How the data were processed

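PolyA RNA libraries were sequenced on a NovaSeq. Raw counts of reads on Ensembl genes were deposited as a single table, made by the authors with STAR (BWA MEM was also named) on hg38 and featureCounts. Versions, strand setting and multi-mapped reads are not given in the sources used here. The design counted on 13 samples, and 12 were used: DEG replicate 3 was not analysed here. Replicate numbers follow accession order and only name libraries.

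From these counts, genes were filtered with filterByExpr by group, all 12 libraries entered TMM scaling and the dispersion estimate, and groups were compared with the exact test of edgeR 4.0.16 (R 4.3.3), the test the authors named. FDR is Benjamini-Hochberg over 17092 genes. Standard errors and 95% intervals came from edgeR's quasi-likelihood fit. In simulated counts for PC against NC (17092 genes), 100 genes were changed by 0.2 on the log2 scale and 100 by 0.5. Of these, 39% and 82% were recovered, and 7 unchanged genes were called. The changed genes were drawn from a wider range of levels than the members, which averaged 13.8 to 406 CPM. These shares need not hold for the members. Coordinates, exon lengths and overlaps came from GENCODE v44 (hg38), promoters from RefSeq.

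Members, lists and motifs were chosen with earlier results of these data known. The rule for giving values covered the 2 largest calls per role under serum and the 4 largest rises and falls per compound against NC. It also covered the 3 largest each way between compounds, and the most and least abundant members. Other lists name at most 4 genes a comparison. Some values fall outside the rule, among them GINS2, TYMS, POLD3 and TK1. Others are E2F1 under serum, RFC4, LIG1, RRM1 and RRM2 in POG against NC, and CDT1 in POG against RES. Alternatives were the quasi-likelihood test, DESeq2 1.42.0, other scalings, filters, dispersions and FDR limits, and libraries left out in turn.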

Additional observations from a re-analysis of the deposited data

How the results depend on the processing

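Counts of called members that moved by more than 1.5 times are given here. For RES against NC (8), the count was 3 at an FDR of 0.01, 4 without the filter on low counts, 14 with dispersions from the groups compared, and 0 to 4 with 1 library left out, the 0 being without NC replicate 1. For DEG against NC (7), it was 4 at an FDR of 0.01, 11 with plain library totals, 14 with dispersions from the groups compared, and 1 to 6 with 1 library left out, the 1 being without NC replicate 1. At an FDR of 0.01 the count was 14 for POG against RES (22) and 11 for DEG against RES (18). Leaving out a library gave 9 to 14 for DEG against RES, the 9 being without DEG replicate 1. For DEG against POG (0), dispersions from the groups compared gave 3. The causes were not tested. No member named by the rule changed direction in any alternative: of their values under alternatives, 412 kept their side of the threshold and 68 lost their call.

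No paired analysis was possible because replicate numbers came from accession order. With 2 or 3 libraries a group, differences near 0.1 on the log2 scale were at the limit of detection, and calls against NC rest on a pair of libraries. Plain totals also changed the split of higher and lower calls: with serum it was 6 and 12 in place of 8 and 9, and with RES 11 and 1 in place of 5 and 3.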
